A study of Arabidopsis thaliana with 30 samples.

Results

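The transcripts described here are the 150 nuclear genes of Arabidopsis thaliana whose total mRNA stood out most at 26 hours after imbibition (HAI) during the passage from dry seed to seedling. They were chosen from the deposited expression table by their level at 26 HAI. For each of the 5 time points the 3 arrays of total mRNA (T) were averaged, and the margin of a gene was its mean at 26 HAI minus the highest of its other 4 means. Genes with all 3 arrays of 26 HAI above a log2 level of 5 were kept, and the 150 with the largest margin were taken. The table held 27827 genes, of which 27720 carried a nuclear locus number, 9822 met the level limit and 2676 of those had a margin above 0. The members were therefore 1.53% of the genes that met the level limit.

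The study followed fully after-ripened seeds of the ecotype Col-0 with Affymetrix Arabidopsis Gene 1.1 ST arrays at 6, 26, 48 and 72 HAI, with dry seeds as the starting point. At each time point total mRNA and polysomal mRNA (P, the RNA recovered from the polysome region of a sucrose gradient, where mRNA that carries several ribosomes sediments) were hybridised in 3 biological replicates, which gave 30 arrays in 10 groups. All groups were wild type with no other treatment, the imbibed ones were kept on wet paper in continuous light, and each replicate came from the bulked harvest of many plants, so that a value is an average over whole seeds or seedlings with all their tissues. Fewer cells of a type and less RNA per cell cannot be told apart in such samples.

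Germination begins with water uptake, continues with the repair and restart of metabolism inside the seed coat, and ends when the radicle breaks through the coverings. In Arabidopsis the outer seed coat (testa) splits first and the single cell layer of the endosperm, whose walls are rich in mannans, is softened over the radicle tip before it gives way. The sample at 26 HAI was taken when testa rupture began, and that at 48 HAI when most radicles had emerged. Cell expansion in the embryonic axis, which drives the radicle out, needs loosening of walls by proteins such as expansins and is promoted by gibberellin and held back by abscisic acid.

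The margin in total mRNA set the members and is given as a description only. It was 3.25 on the log2 scale in MAN7, 1.31 at the median and 1.02 in the last member, and it exceeded 2 in 17 members. At the edge of the list, HDT4 (a plant-specific histone deacetylase of the HD2 type) and RACK1C (a scaffold protein that binds ribosomes) both had a margin of 1.02, and the next genes outside it, AT5G56530 and AT1G41880, both had 1.01. The mean T level over the members was 3.93 for dry seeds, 5.002 for 6 HAI, 7.23 for 26 HAI, 5.57 for 48 HAI and 4.82 for 72 HAI. Levels are log2 values from robust multi-array averaging, in which 4 was taken as the noise level. All 3 T arrays of a time point were above 4 in 49 members for dry seeds, 95 for 6 HAI, 150 for 26 HAI (the rule required this), 121 for 48 HAI and 95 for 72 HAI. The rule was also applied anew without T replicate 1, 2 or 3. The 150 genes chosen each time shared 131, 135 and 127 with the members. In the replicate left out, their margin was above 0 in 150, 150 and 149 of them and above 1 in 110, 124 and 90. Among the other genes that met the level limit, it was above 0 in 26.0%, 27.2% and 23.1% and above 1 in 0.789%, 0.969% and 0.58%. These counts are a description too. The time point in second place varied. The next highest T mean was that of 48 HAI for 95 members, 6 HAI for 41, 72 HAI for 12 and dry seeds for 2.

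Polysomal mRNA was not used by the rule, so the same time course was tested there. It is not fully independent of the rule, because both fractions were prepared from seeds of the same stages and the total RNA came from the raw extract. The mean P level over the members was 3.88 ± 0.03 for dry seeds, 5.02 ± 0.13 for 6 HAI, 7.11 ± 0.04 for 26 HAI, 5.74 ± 0.14 for 48 HAI and 4.83 ± 0.06 for 72 HAI (SD over arrays, n = 3 each). Seen over the whole set, polysomal mRNA thus had its top at the same time, and the 3 arrays of each group lay close together compared with the steps between groups.

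**Figure D1:**
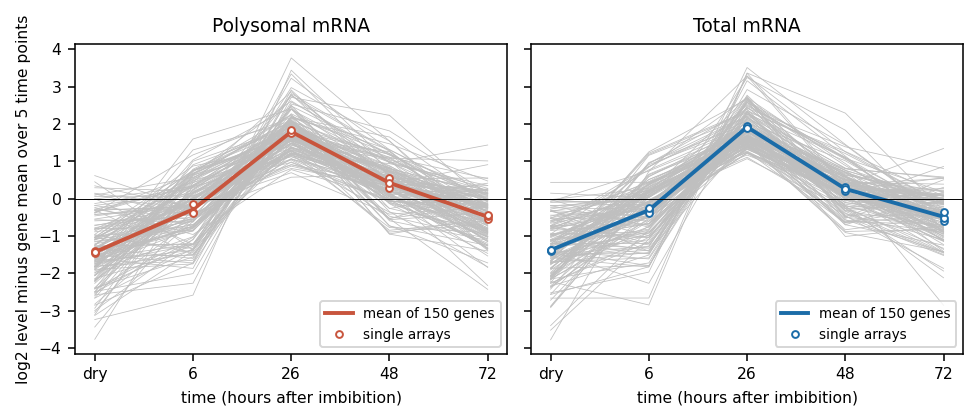
Log2 level of the 150 members minus each gene's own mean over the 5 time points, in polysomal mRNA (left) and total mRNA (right), against time in hours after imbibition (evenly spaced, not to scale). Grey lines are single genes, the coloured line is the mean of the members and the open circles are the 3 arrays of a group, with a top at 26 HAI in both fractions (mean levels 7.11 and 7.23).

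The level of each gene in polysomal mRNA at 26 HAI was set against each other time point in a limma fit over all 30 arrays, and a gene was called when the log2 difference exceeded 1 and the adjusted p (Benjamini-Hochberg over the 17061 genes tested) was below 0.05. Against dry seeds 144 of 150 members (96%) were called higher, where 27.9% of all genes tested and 36.4% of the genes above the level limit were called, and the median difference was 3.28. Against 6 HAI 130 members (86.7%) were called higher, with 14.7% of all genes tested and 17% of those above the level limit, and a median of 1.72. The comparison with 48 HAI gave the fewest calls, 100 members (66.7%) with a median of 1.24, beside 14.6% of all genes tested and 18.5% of those above the limit. Against 72 HAI 144 members (96%) were called higher, beside 24.2% and 33.4%, with a median of 2.25. Over all genes tested the 4 medians were 0.07, −0.05, 0.10 and 0.14. No member was called lower in any of the 4 comparisons by limma, nor at an unadjusted p below 0.05, while 23%, 9.77%, 14% and 19% of all genes tested and 18.5%, 7.86%, 5.62% and 8.27% of those above the level limit were called lower. The difference is partly set by the background at the low end, since the P mean was below 4 in 89 members in dry seeds, 40 at 6 HAI, 13 at 48 HAI and 38 at 72 HAI. Setting the array medians equal would lower the median of all genes tested by 0.30 at 26 HAI against dry seeds and by 0.27 against 6 HAI, and raise it by 0.09 against 48 HAI and 0.14 against 72 HAI.

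A peak test combined the 4 comparisons, and required the smallest of the 4 differences to exceed 1 and the largest of the 4 one-sided p-values, adjusted over all genes tested, to be below 0.05. It was passed by 83 of the 150 members (55.3%), against 0.909% of all genes tested (155 genes) and 1.19% of the genes above the level limit (117 genes). With limma's treat, which tests whether each difference exceeds 1 rather than 0, 8 of the 150 passed, namely MAN7, SEOR1, EXPA10, EXPA15, CYS2, SAUR11, DOF6 and SAUR3, and the comparison with 48 HAI alone gave 44 in place of 100. A further 32 members passed the p-value limit with a difference below 1, so that 115 passed it in all. Of the 155 genes called, 53.5% were members, 34 were other genes above the level limit and 38 were genes below it. Of the 83, 46 kept the call when the polysomal arrays of any single replicate number, or any single polysomal array of 26 HAI, were left out.

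**Figure D2:**
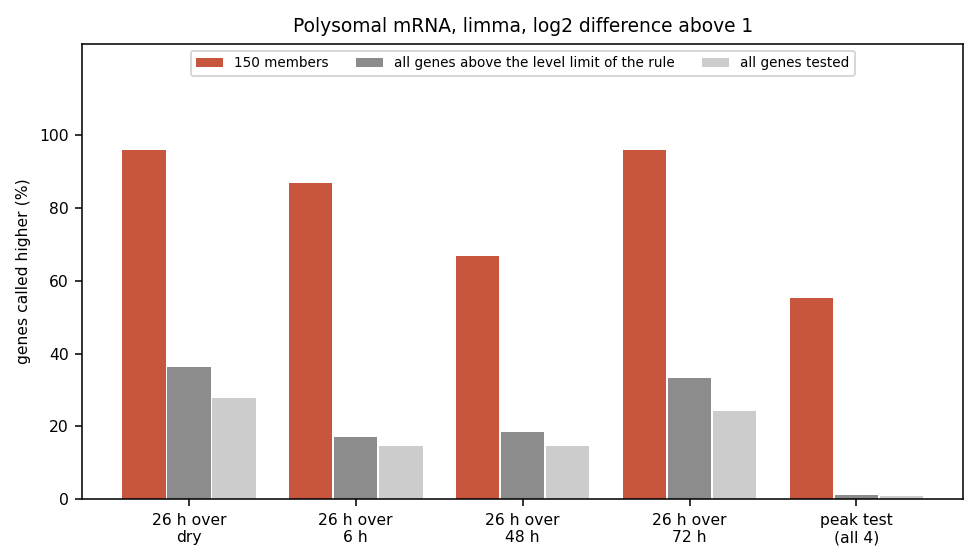
Percentage of genes called higher at 26 HAI in polysomal mRNA against each other time point, and in the peak test that combines the 4, for the 150 members, for all genes above the level limit of the rule and for all genes tested (limma, log2 difference above 1, adjusted p below 0.05). The members reach 96%, 86.7%, 66.7%, 96% and 55.3%, and the comparison with 48 HAI is the lowest of the single comparisons.

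The polysomal margin (P mean at 26 HAI minus the highest other P mean) was above 0 in 149 members, above 1 in 84 and above 2 in 11, with a median of 1.07. Of the 9672 other genes above the level limit, 22.3% had a polysomal margin above 0 and 0.38% one above 1. The 3 arrays of 26 HAI lay above all 12 other P arrays in 143 members (95.3%), as they did in 6.88% of all genes tested and 10.2% of those above the level limit. The 7 members whose arrays overlapped were MIR160b, SNOR108, AT1G20015, AT1G53541, AT5G45650, AT5G15022 and AT4G11120. The polysomal margin was larger than the T margin in 28 members and not larger in 122, with a median of P minus T of −0.29. Since members were chosen for a large T margin, a smaller margin in the other fraction is what the choice favours, and nothing is read from it. The time point in second place was 48 HAI for 96 members, 6 HAI for 39, 72 HAI for 9 and dry seeds for 6, and it was the same as in total mRNA for 116.

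**Figure D3:**
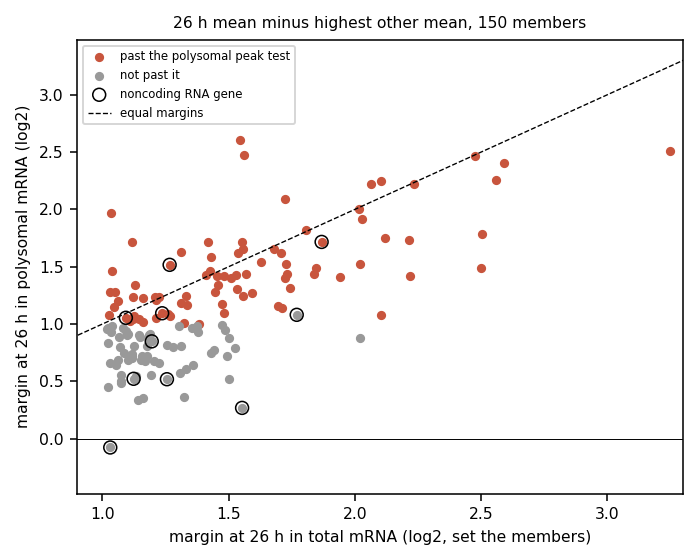
Margin at 26 HAI in polysomal mRNA (vertical axis, log2) against the margin in total mRNA (horizontal axis, log2, which set the members), one point per gene for the 150 members. Red points passed the polysomal peak test (83 genes), black rings mark noncoding RNA genes and the dashed line marks equal margins, which 28 members exceed. The horizontal axis starts at 0.9.

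The group of members with the largest margins was that of cell wall loosening. It comprised 8 genes (MAN7, 5 alpha expansins, XTH5 and GASA6), and 6 of them passed the peak test. The functional groups used here and in the following paragraphs were put together after the values of the members were seen, and their counts describe them. For comparison, 55.3% of all 150 members passed the peak test, and no group was tested against that share. MAN7 encodes an endo-beta-mannanase, an enzyme that cuts the mannans of the endosperm wall. The P levels of MAN7 were 4.22, 4.16 and 4.37 for dry seeds, 4.66, 3.98 and 3.93 for 6 HAI, 6.75, 6.75 and 7.36 for 26 HAI, 4.85, 3.45 and 4.45 for 48 HAI, and 3.78, 5.02 and 4.52 for 72 HAI. The lowest array of 26 HAI stood 1.73 above the highest of the other 12, and the 4 other time points overlapped with each other around the noise level. The smallest difference in polysomal mRNA, that against 72 HAI, was 2.51 (SE 0.32, adjusted p of the peak test 1.14e-05, limma). In total mRNA the 3 arrays of 26 HAI were 7.64, 7.60 and 8.02, and the highest of the other 12 was 5.11. Of the 4 mannanase genes tested, MAN7 alone was a member and was the only one called higher at 26 HAI, both against 6 HAI and against 48 HAI. Of all genes tested, 14.7% and 14.6% were called higher in these comparisons.

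Expansins loosen the wall at acid pH without cutting its polymers. Of the 10 alpha expansins above the level limit of the rule, 5 (EXPA1, EXPA2, EXPA8, EXPA10 and EXPA15) were members, and 7 had a margin above 0 in each fraction. EXPA2, which is known from the endosperm of germinating seeds, had P levels of 2.27, 2.35 and 2.53 for dry seeds, 3.52, 3.10 and 3.93 for 6 HAI, 8.82, 8.96 and 9.26 for 26 HAI, 7.46, 6.03 and 6.88 for 48 HAI, and 5.09, 4.57 and 3.87 for 72 HAI. Its level was below noise up to 6 HAI, highest at 26 HAI without overlap and intermediate at 48 HAI, at 2.22 above 48 HAI (SE 0.30, peak test adjusted p 2.22e-05, limma). EXPA10 was already high at 6 HAI, with P levels of 3.16, 3.10 and 2.94 for dry seeds, 7.13, 7.04 and 7.63 for 6 HAI, 9.63, 9.59 and 9.89 for 26 HAI, 7.69, 7.51 and 7.14 for 48 HAI, and 6.69, 6.56 and 6.85 for 72 HAI. Its arrays of 6 and 48 HAI overlapped, and 26 HAI exceeded the nearer of them by 2.26 (SE 0.19, peak test adjusted p 2.55e-08, limma). EXPA15 had P means below noise up to 6 HAI, whereas EXPA1 had reached a P mean of 4.98 at 6 HAI, 1.73 above dry seeds (adjusted p 8.3e-07, limma). The P mean of EXPA15 was 8.35 ± 0.42 at 26 HAI and 5.88 ± 0.49 at 48 HAI, and that of EXPA1 was 9.61 ± 0.10 at 26 HAI and 7.69 ± 0.34 at 48 HAI (SD, n = 3 each), with peak test adjusted p-values of 9.29e-06 and 1.25e-05 from limma. EXPA8 did not pass the peak test. Its P means were 3.64 ± 0.25 for dry seeds, 7.25 ± 0.41 for 6 HAI, 8.16 ± 0.38 for 26 HAI, 5.71 ± 0.49 for 48 HAI and 6.49 ± 0.67 for 72 HAI (SD, n = 3 each), so that it was 0.91 above 6 HAI (peak test adjusted p 0.064, limma).

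The family did not move as a whole. Of the 18 alpha expansins tested, 7 were called higher and none lower at 26 HAI against 6 HAI in polysomal mRNA (limma), but against 48 HAI 5 were higher and 6 lower. Of all genes tested, 14.7% were called higher and 9.77% lower against 6 HAI, and 14.6% and 14% against 48 HAI. Among the 5 above the level limit that were not members, EXP3 and EXPA9 had polysomal margins of 0.80 and 0.72, and EXPA4, EXPA13 and EXPA20 had margins of −0.72, −0.85 and −0.69. EXPA13 was highest in dry seeds, EXPA20 at 48 HAI and EXPA4 at 72 HAI.

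XTH5, a xyloglucan endotransglucosylase/hydrolase that cuts and rejoins xyloglucan chains, had P means of 4.31 ± 0.42 for dry seeds, 4.45 ± 0.01 for 6 HAI, 7.03 ± 0.29 for 26 HAI, 6.09 ± 0.41 for 48 HAI and 4.64 ± 0.64 for 72 HAI (SD, n = 3 each). It was 0.95 above 48 HAI (adjusted p 0.00372, limma), which is under the limit of 1. It was the only member of this family. Of the 25 genes tested, 10 were called higher and 2 lower at 26 HAI against 6 HAI (14.7% and 9.77% of all genes tested). Against 48 HAI 2 were higher and 15 lower (14.6% and 14% of all genes tested). GASA6, a small gibberellin-regulated protein that promotes elongation of the embryonic axis, had P levels of 2.91, 2.80 and 1.75 for dry seeds, 3.19, 2.99 and 3.24 for 6 HAI, 9.06, 9.08 and 9.37 for 26 HAI, 7.45, 5.99 and 6.60 for 48 HAI, and 7.50, 6.88 and 7.12 for 72 HAI. It was below noise up to 6 HAI and, unlike most members, had 72 HAI in second place, 2.01 below 26 HAI (SE 0.30, peak test adjusted p 8.93e-05, limma). Among the 6 GASA genes tested, 4 were called higher and 2 lower at 26 HAI against 6 HAI, beside 14.7% and 9.77% of all genes tested.

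**Figure D4:**
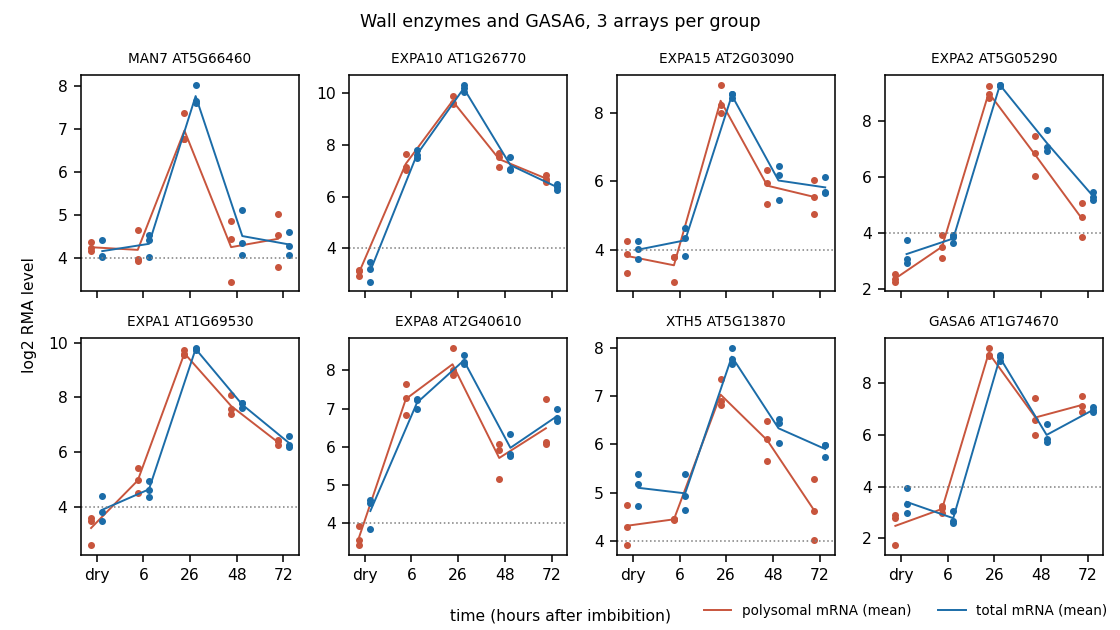
Log2 level of the 8 members of the cell wall group against time in hours after imbibition (evenly spaced, not to scale), in polysomal mRNA (red) and total mRNA (blue). Points are single arrays (3 per group), lines join the means and the dotted line is the noise level of 4. All 8 have their highest mean at 26 HAI in both fractions, and EXPA10 and EXPA8 are above 7 at 6 HAI. Each panel has its own vertical scale.

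Other members with a large margin came from varied functions. SEOR1, a filament protein of phloem sieve elements, had P levels of 3.21, 3.22 and 3.02 for dry seeds, 2.55, 3.15 and 2.93 for 6 HAI, 6.97, 7.60 and 7.24 for 26 HAI, 4.79, 4.86 and 4.96 for 48 HAI, and 4.43, 4.17 and 4.08 for 72 HAI. The 5 groups fell into 3 tiers, with 26 HAI at the top, 48 and 72 HAI between and the first time points below noise, and the smallest difference was 2.40 (SE 0.20, peak test adjusted p 2.55e-08, limma). CYS2, a phytocystatin that inhibits cysteine proteases, was 6.50, 5.98 and 6.59 at 26 HAI and between 2.94 and 4.52 on all 12 other P arrays. UMAMIT30 (of an amino acid transporter family), CB5-C (a cytochrome b5) and RPB5C (an RNA polymerase subunit) had T margins of 2.50, 2.22 and 2.12 and polysomal margins of 1.79, 1.42 and 1.75, all past the peak test, as were AT1G28650 and AT2G46420 with 1.49 and 1.08. AT3G57780 had one of the 10 largest polysomal margins, 2.09, with a T margin of 1.72.

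Small auxin upregulated RNAs (SAURs) encode short proteins that promote cell expansion by activating the plasma membrane proton pump, which acidifies the wall. Of the 9 SAUR genes above the level limit, 4 were members and 3 of these passed the peak test. SAUR3 (AT4G34790) had the largest polysomal margin of all members. Polysomal arrays gave it 2.51, 2.68 and 2.57 for dry seeds, 3.88, 3.57 and 4.28 for 6 HAI, 8.73, 8.59 and 8.47 for 26 HAI, 6.37, 5.62 and 5.99 for 48 HAI, and 4.96, 4.99 and 5.63 for 72 HAI. The groups did not overlap, except that the highest array of 72 HAI reached the lowest of 48 HAI, and 26 HAI exceeded 48 HAI by 2.61 (SE 0.25, peak test adjusted p 1.42e-07, limma). SAUR4 (AT4G34800), its neighbour on the chromosome, was less sharply peaked in polysomal mRNA, with 6.10, 6.39 and 6.57 at 26 HAI and 5.79, 5.55 and 6.00 at 48 HAI. The 2 groups were parted by a narrow gap, and the difference was 0.57 (SE 0.37, adjusted p 0.192, limma) and did not pass the peak test. SAUR8 (AT2G16580) and SAUR11 (AT5G66260) were near or below noise outside 26 HAI, where their P means were 5.70 ± 0.44 and 6.03 ± 0.12 (SD, n = 3 each), and passed with smallest differences of 1.74 and 2.25. Of the 5 other SAUR genes above the level limit, AT4G34750 had a polysomal margin of 0.64 and the remaining 4 had margins between −1.71 and −0.07.

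Serine carboxypeptidase-like proteins form a large family of hydrolases and acyltransferases. Of the 11 genes above the level limit, 3 (scpl20, scpl44 and scpl50) were members, and only scpl20 passed the peak test, with P means of 7.91 ± 0.24 at 26 HAI and 6.48 ± 0.62 at 48 HAI (SD, n = 3 each, adjusted p 0.0154, limma). In scpl44 the decline after 26 HAI was small. Its P levels were 2.35, 2.62 and 2.62 for dry seeds, 2.68, 2.70 and 3.14 for 6 HAI, 7.84, 7.69 and 7.94 for 26 HAI, 7.55, 7.34 and 7.14 for 48 HAI, and 4.998, 5.39 and 4.65 for 72 HAI. The arrays of 26 HAI lay above those of 48 HAI by a narrow gap, with a difference of 0.48 (SE 0.24, adjusted p 0.0873, limma), while the difference from 6 HAI was 4.98. All 3 members of this family were lower in polysomal than in total mRNA at 26 HAI, by 1.09 to 1.19 on the log2 scale as a description, and so were the 8 other genes of the family above the level limit, by 0.72 to 1.58. The median over the 140 protein-coding members was 0.02.

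Transcription factors and hormone genes were chosen for description after their values were seen, and 8 of 11 transcription factors passed the peak test, beside 55.3% of all members. In the list of MYB, bHLH, ERF, NAC, WRKY and homeobox factors 173 genes were tested. Of these, 2 were members and 6 passed the peak test (0.909% of all genes tested). At 26 HAI 30 were called higher and 21 lower against 6 HAI (limma). Against 48 HAI 27 were higher and 39 lower. Of all genes tested, 14.7% and 14.6% were called higher and 9.77% and 14% lower. DOF6, a zinc finger factor that restrains germination, had P levels of 2.32, 2.07 and 2.31 for dry seeds, 2.50, 2.61 and 2.56 for 6 HAI, 5.89, 5.81 and 5.71 for 26 HAI, 3.40, 3.02 and 3.56 for 48 HAI, and 3.07, 3.29 and 2.79 for 72 HAI. It was above noise at 26 HAI only, by 2.48 over 48 HAI (SE 0.24, peak test adjusted p 1.54e-07, limma), a size set in part by the background, at which the other groups lay. HRA1 (AT3G10040), a trihelix factor that attenuates the response to low oxygen, had P levels of 2.65, 3.00 and 3.09 for dry seeds, 5.87, 5.49 and 6.16 for 6 HAI, 7.25, 7.23 and 7.30 for 26 HAI, 4.60, 5.05 and 4.35 for 48 HAI, and 3.69, 2.85 and 3.47 for 72 HAI. Every neighbouring pair of time points was free of overlap, and 26 HAI exceeded 6 HAI by 1.42 (SE 0.23, peak test adjusted p 0.000247, limma). LBD41, a LOB domain gene also known to respond to low oxygen, had P means between 6.08 and 6.44 at the 4 other time points and 7.91 ± 0.19 at 26 HAI (SD, n = 3), a difference of 1.47 from the nearest (SE 0.21, peak test adjusted p 5.97e-05, limma). No list of low oxygen genes was set up, so these genes do not stand for that response. The member AT4G10270, which the study cites as translationally repressed under hypoxia, did not pass the peak test. It was 0.78 above 6 HAI (adjusted p 0.00284, limma).

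The homeobox gene HB-3 (WOX9), which maintains cell division in meristems, was high early. Its P levels were 5.82, 5.06 and 5.01 for dry seeds, 7.02, 6.76 and 6.74 for 6 HAI, 8.12, 7.92 and 7.50 for 26 HAI, 5.37, 4.98 and 5.06 for 48 HAI, and 3.08, 3.67 and 2.97 for 72 HAI. It ended below the level of dry seeds, and the step over 6 HAI was 1.004 (SE 0.22, peak test adjusted p 0.00537, limma), at the very limit of a call. The basic helix-loop-helix genes bHLH093 and MYC4 (a jasmonate-responsive factor), the heat stress factor HSFB4 and the AT-hook gene AHL18 also passed, with smallest differences of 1.34, 1.28, 1.24 and 1.43. PAN, GRF4 and CRF3 did not, with 0.91, 0.98 and 0.81.

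PYL2 encodes a receptor of abscisic acid, the hormone that holds germination back. Polysomal levels of PYL2 were 6.63, 6.54 and 6.13 for dry seeds, 8.21, 8.33 and 8.11 for 6 HAI, 9.30, 9.57 and 9.50 for 26 HAI, 7.48, 7.89 and 7.43 for 48 HAI, and 4.90, 6.20 and 5.76 for 72 HAI. Levels were above noise throughout, the highest other array was 0.98 below the lowest one of 26 HAI, and 26 HAI exceeded 6 HAI by 1.24 (SE 0.26, peak test adjusted p 0.00304, limma). MES1, an esterase that can release salicylic acid from its methyl ester, had P means of 7.14 ± 0.20 at 26 HAI and 5.49 ± 0.29 at 6 HAI (SD, n = 3 each), and exceeded 48 HAI by 2.74 (adjusted p 1.18e-09, limma).

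Ribosome, RNA and chromatin genes formed a group of 10 members, of which 6 passed the peak test, near the share over all members (55.3%). RPL3B, a protein of the large cytosolic ribosomal subunit, had P levels of 4.46, 4.55 and 4.56 for dry seeds, 6.38, 6.55 and 6.45 for 6 HAI, 8.67, 8.45 and 8.56 for 26 HAI, 6.90, 7.17 and 6.99 for 48 HAI, and 6.68, 6.22 and 6.22 for 72 HAI. The spread within groups was small, 6 and 72 HAI overlapped, and the difference of 26 HAI from 48 HAI was 1.54 (SE 0.18, peak test adjusted p 3.76e-06, limma). The ribosomal protein genes rps15ab and RPL16A were members too, with polysomal margins of 1.20 and of 0.93, which is under the limit. In the list of cytosolic ribosomal proteins 54 genes were tested, of which these 3 were members and 2 passed the peak test. At 26 HAI 22 of the 54 were called higher against 6 HAI and 3 against 48 HAI (limma). Among 17 nucleolar ribosome biogenesis factors tested, with no member, 0 were higher against 6 HAI and 15 against 48 HAI. No gene of either list was called lower. Of all genes tested, 14.7% and 14.6% were called higher and 9.77% and 14% lower.

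Of the 4 HD2 histone deacetylases, plant-specific proteins found in the nucleolus, HDA3 (HD2A) and HDT4 (HD2D) were members. HDA3 had P levels of 6.50, 6.42 and 6.65 for dry seeds, 9.65, 9.53 and 9.58 for 6 HAI, 10.69, 10.61 and 10.42 for 26 HAI, 9.41, 9.32 and 9.39 for 48 HAI, and 7.36, 7.45 and 7.24 for 72 HAI. Most of its increase had taken place by 6 HAI, and the further step to 26 HAI was 0.98 (SE 0.19, adjusted p 0.000103, limma), which is under the limit of 1. HDT4 followed the same course with a step of 0.90 (adjusted p 4.24e-05, limma) and 10.17 ± 0.07 at 26 HAI (SD, n = 3). Neither passed the peak test, nor did RACK1C with 0.96. The RNA-binding protein gene GRP4, the tRNA modification gene TRM82, the arginine methyltransferase gene PRMT1A and RPB5C passed it, with smallest differences of 1.27, 1.18, 1.48 and 1.75. Among genes of DNA replication and its chromatin, THY-2 (dihydrofolate reductase-thymidylate synthase) passed with 1.09, and POLD2 (a subunit of DNA polymerase delta) and the histone gene HTA8 did not, with 0.66 and 0.69. None of the 18 tested genes of replication licensing was a member. In polysomal mRNA 14 of them were called higher at 26 HAI against 6 HAI and 1 against 48 HAI (limma), beside 14.7% and 14.6% of all genes tested.

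Genes of sugar, fatty acid and reserve metabolism gave 8 members, and 6 passed the peak test, beside 55.3% of all members. The lists of glyoxylate cycle and gluconeogenesis (10 genes tested) and of seed storage, oil body and late embryogenesis abundant proteins (21 tested) had no member. At 26 HAI against 6 HAI, 1 and 0 of these were called higher and 0 and 12 lower in polysomal mRNA (limma). Against 48 HAI 1 and 19 were higher and 1 and 1 lower. Of all genes tested, 14.7% and 14.6% were called higher and 9.77% and 14% lower. GPT2, a plastid translocator of glucose 6-phosphate, had P levels of 4.94, 4.76 and 4.22 for dry seeds, 4.34, 4.42 and 4.54 for 6 HAI, 8.88, 8.99 and 9.05 for 26 HAI, 7.37, 7.71 and 7.26 for 48 HAI, and 5.06, 5.53 and 5.27 for 72 HAI. Dry seeds and 6 HAI overlapped, and 26 HAI was 4.54 above 6 HAI and 1.53 above 48 HAI (SE 0.21 each, peak test adjusted p 4.18e-05, limma). The asparaginase gene ASPGB1, whose product releases ammonium from asparagine, had P means of 2.88 ± 0.34 for dry seeds, 4.09 ± 0.12 for 6 HAI, 7.70 ± 0.12 for 26 HAI, 6.29 ± 0.10 for 48 HAI and 5.59 ± 0.32 for 72 HAI (SD, n = 3 each), with a peak test adjusted p of 9.29e-06 (limma). APL2 (a large subunit of ADP-glucose pyrophosphorylase, for starch), PPCK1 (the kinase of phosphoenolpyruvate carboxylase), RSW10 (ribose 5-phosphate isomerase) and FTM1 (a stearoyl-acyl carrier protein desaturase) passed with smallest differences of 1.07, 1.01, 1.28 and 1.28. SIP1 (seed imbibition 1) and the desaturase gene ADS1 did not, with 0.79 and 0.52.

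Sulfur assimilation and glucosinolate synthesis, which shares its activated sulfate, gave 5 members, and 2 passed the peak test, SUR1 (a C-S lyase of glucosinolate synthesis) and ATSDI1 (a repressor of glucosinolate synthesis under sulfur shortage). APS3 encodes ATP sulfurylase, the entry enzyme, and had P levels of 5.46, 5.72 and 5.23 for dry seeds, 5.41, 5.89 and 6.12 for 6 HAI, 7.45, 7.74 and 7.79 for 26 HAI, 6.84, 7.05 and 6.69 for 48 HAI, and 6.08, 5.91 and 6.04 for 72 HAI. The arrays of 26 HAI were above all others, but the difference from 48 HAI was 0.80 (SE 0.18, adjusted p 0.00042, limma). APK (adenosine phosphosulfate kinase) and SOT17 (a sulfotransferase of glucosinolate synthesis) were similar, at 0.94 and 0.81 above 48 HAI (adjusted p 2.11e-05 and 0.00134, limma). All 5 were called higher at 26 HAI than at 6 HAI, by 1.25 to 3.09. Of 4 transport genes, UMAMIT30, OCT1 (an organic cation transporter) and AAC2 (the mitochondrial ADP/ATP carrier) passed and CNGC12 (a cyclic nucleotide-gated channel) did not, with 0.72.

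Some of these calls of the peak test depended on a single replicate number. Without replicate 1 the calls of UMAMIT30, bHLH093, PPCK1, FTM1, ATSDI1, RPB5C, HB-3, THY-2, AAC2 and rps15ab were lost. Without replicate 2 those of TRM82, RSW10, APL2, scpl20, ATSDI1, RPB5C, HB-3, THY-2, AAC2, AT2G46420 and rps15ab were lost. Without replicate 3 those of PYL2, HSFB4, SUR1, FTM1, scpl20, AAC2 and AT2G46420 were lost. That of AAC2 was also lost with the replicate number as a block, at the same difference of 1.06. The smallest difference stayed between 0.79 (PPCK1) and 1.78 (RPB5C) in these fits. The calls of MAN7, EXPA1, EXPA2, EXPA10, EXPA15, GASA6, SEOR1, CYS2, SAUR3, DOF6, HRA1, LBD41, RPL3B, GPT2 and ASPGB1 were kept in all of them.

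Noncoding RNA genes made up 10 of the 150 members, namely 7 small nucleolar RNAs (snoRNAs), the microRNA gene MIR160b and the long noncoding RNAs AT5G15022 and AT4G37895. snoRNAs guide the chemical modification of ribosomal RNA in the nucleolus and are not translated. They were 4.67% of the members and 0.54% of the genes above the level limit, 53 in all. AT1G19373 had T levels of 7.16, 6.77 and 6.80 at 26 HAI, between 4.70 and 5.68 at 6 HAI and below 4 at all other time points. Its P levels were 2.01, 3.11 and 2.16 for dry seeds, 3.58, 3.85 and 3.74 for 6 HAI, 5.02, 5.39 and 5.91 for 26 HAI, 3.60, 2.81 and 3.63 for 48 HAI, and 2.36, 2.56 and 2.44 for 72 HAI. The polysomal fraction thus followed the same course at a lower level, with 26 HAI above 6 HAI by 1.72 (SE 0.28, peak test adjusted p 0.000286, limma). AT4G13245 and AT1G03743 also passed the peak test, with 1.52 and 1.09, and the call of AT1G03743 was lost without replicate 1 or replicate 3. AT1G19376, which lies next to AT1G19373, AT5G13225, SNOR108 and AT1G20015 did not pass, with 1.08, 0.85, 0.52 and −0.08.

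AT1G20015 was the one member whose P mean at 26 HAI was not its highest. The polysomal arrays read 5.001, 5.05 and 4.69 for dry seeds, 5.01, 5.50 and 5.51 for 6 HAI, 5.76, 6.45 and 6.71 for 26 HAI, 6.26, 6.31 and 6.58 for 48 HAI, and 5.54, 5.68 and 5.95 for 72 HAI. The arrays of 26 and 48 HAI overlapped, with a difference of −0.08 (SE 0.23, adjusted p 0.796, limma) that became 0.20 without the first polysomal array of 26 HAI. At 26 HAI all 7 snoRNAs were lower in polysomal than in total mRNA, by 0.98 to 2.01 with a median of −1.47, and the median over the 53 snoRNAs above the level limit was −1.28. The sources name different labelling kits, and how far each reads RNA without a poly(A) tail was not tested. MIR160b, whose microRNA targets auxin response factors, had P levels of 4.44, 4.25 and 4.64 at 26 HAI and 4.75, 3.74 and 4.03 at 48 HAI, which overlapped (difference 0.27, SE 0.36, adjusted p 0.536, limma).

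**Figure D5:**
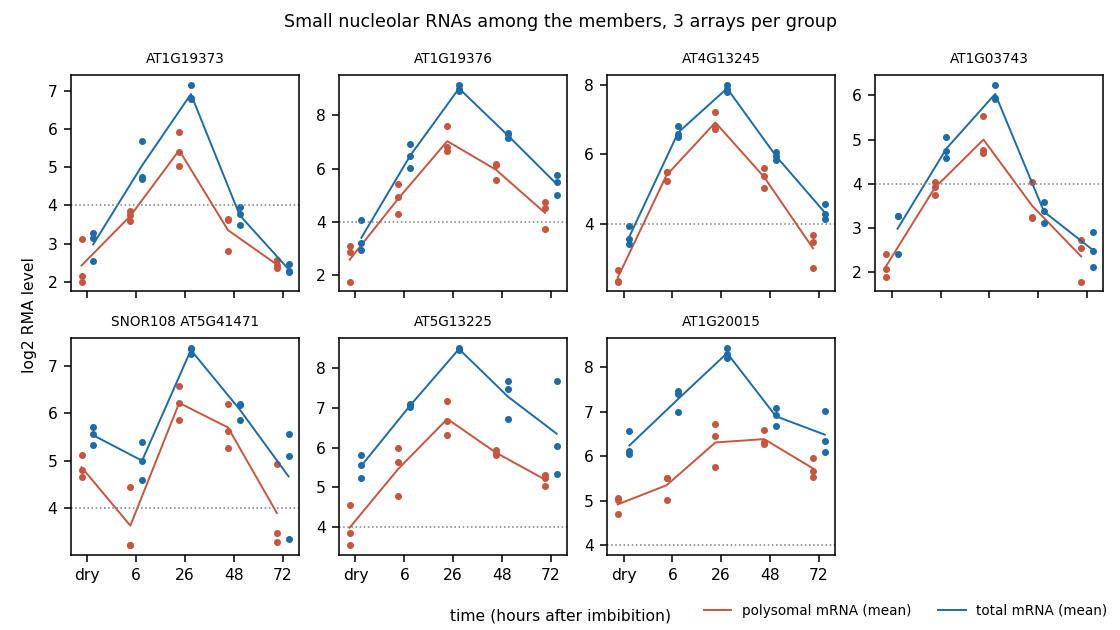
Log2 level of the 7 snoRNA genes among the members against time in hours after imbibition (evenly spaced, not to scale), in polysomal mRNA (red) and total mRNA (blue). Points are single arrays (3 per group), lines join the means and the dotted line is the noise level of 4. At 26 HAI polysomal levels are 0.98 to 2.01 below total levels. Each panel has its own vertical scale.

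Polysome occupancy is the level in polysomal minus that in total mRNA and contains the values that chose the members, so it is a description. Its median over the members was −0.02 for dry seeds, 0.10 for 6 HAI, −0.07 for 26 HAI, 0.15 for 48 HAI and 0.08 for 72 HAI. Over the other genes above the level limit it was 0.15, 0.08, 0.08, 0.14 and 0.12 at the same times. At 26 HAI the 140 protein-coding members ranged between −1.34 and 1.06. Among named members, rps15ab, RSW10, MES1 and SAUR3 had occupancies of 1.06, 0.97, 0.89 and 0.88 at 26 HAI, and UMAMIT30, MAN7 and XTH5 had −1.22, −0.80 and −0.79.

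The approach to 26 HAI and the departure from it differed among members. In polysomal mRNA 77 members (51.3%) were called higher at 6 HAI than in dry seeds, with 16.9% of all genes tested and 24.5% of those above the level limit, and the median was 1.04. The 3 called lower (2%, with 15.1% of all genes tested and 11.4% of those above the limit) were AT3G42850, YLS5 and SNOR108, with differences of −1.83, −1.19 and −1.23, so these fell before they rose. After 48 HAI 63 members (42%) were called lower at 72 HAI, with 7.34% of all genes tested and 9.9% of those above the limit, and a median of −0.91. None was called higher by limma (6.52% of all genes tested, 1.95% of those above the limit), 2 had a positive difference at an unadjusted p below 0.05, and EXPA8 passed the adjusted p with 0.78. In total mRNA, as a description, 72 HAI was within 1 of dry seeds in 78 members, above it by more than 1 in 67 and below it in 5.

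Of 19 lists of genes set up for this tissue by symbol, such as storage proteins, photosystem genes, arabinogalactan proteins and mitotic cyclins, 13 had no member, and 13 of the 150 genes were in a list at all. Only genes with a symbol or synonym could be found in this way, and 71 members had a symbol of their own in RefSeq. Another gene in the TAIR10.1 annotation overlapped 44 members. Signal from the partner cannot be told apart for them without probe positions. Among these 44 were MAN7, EXPA2, GASA6, CYS2, SAUR8, RPB5C, RPL3B, HDA3, scpl20, APS3 and rps15ab. EXPA1, EXPA10, EXPA15, SEOR1, SAUR3, DOF6 and GPT2 did not overlap another gene. There were 4 pairs of adjacent members, the snoRNAs AT1G19373 and AT1G19376, AT1G55200 and AT1G55205, SAUR3 and SAUR4, and EDA40 with the long noncoding RNA AT4G37895, which overlap. In EDA40 the polysomal margin was 0.36 and in AT4G37895 it was 1.05. Chromosomes 1 and 2 carried 30.7% and 23.3% of the members, against 24.9% and 15.8% of the genes above the level limit, and chromosome 3 carried 13.3% against 20.5%, shares that were not tested.

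Marker genes of stored reserves were highest in dry seeds (CRA1, a cruciferin, had T means of 11.8 for dry seeds, 11.7 for 6 HAI, 11.0 for 26 HAI, 6.66 for 48 HAI and 4.03 for 72 HAI). Among green seedling markers RBCS1A, a small subunit of Rubisco, had T means of 10.9 at 26 HAI and 12.1 at 72 HAI. LHCB1.1, LHCB2.1 and LHCA1 reached 5.05, 5.55 and 3.29 at 72 HAI, the last below noise. The markers of dividing cells CYCB1;1, CDKB1;1 and CDKB2;2 had their highest T means at 72 HAI, 4.695, 4.19 and 3.99. Of the 4 markers of the micropylar endosperm, MAN7 and EXPA2 were members, XTH19 had a P mean of 6.54 at 26 HAI and 5.88 at 48 HAI, and EPR1 was highest in dry seeds, with P means of 10.5, 10.03, 8.74, 6.87 and 4.75 over the 5 times. The seed coat markers BAN and TT10 had means below 2 in every group. The share of endosperm RNA in each sample, and its part in the members' levels, was not tested.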

How the data were processed

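The deposited values are log2 expression levels, one per gene and array, which the authors obtained by RMA with Brainarray probe set definitions, that is after background correction and quantile normalisation across arrays. Because of that normalisation, changes are relative to other genes. The 30 arrays were assigned to RNA fraction, time point and replicate from the sample labels, and 0 columns of per-sample values were left unused. The methods name a 3′ IVT Express kit and the labels whole-transcript kits, which was not settled here. The labels call the replicates biological but do not say how extracts were shared between fractions, so p-values measure the spread between these samples.

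A gene was tested if it was above the noise level of 4 in all 3 arrays of at least one of the 10 groups (17061 genes). All 150 members passed this filter because the rule required a level above 5. A linear model of the 10 group means was fitted over all 30 arrays with limma 3.58.1 in R 4.3.3, with empirical Bayes moderation and Benjamini-Hochberg adjustment over all genes tested. Only contrasts within polysomal mRNA were tested. The largest p of the 4 comparisons served as the p of the peak test. Simulated data with known changes were used to test the fit. The rise set there was a log2 difference of 2 over the highest other polysomal group. The polysomal margin exceeded 2 in 11 members and had a median of 1.07, so the simulation does not show how well smaller differences were called. Figures were drawn with matplotlib 3.10.9. An array has no sequencing depth, and precision is limited by 3 arrays per group and by the signal over background.

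Gene symbols and synonyms came from the RefSeq table for TAIR10.1, in which all 150 members were found. Its coordinates served only to find neighbouring and overlapping genes and shares per chromosome, and no sequences were used. Lists taken by symbol can hold other genes with a like symbol. Same-numbered polysomal arrays of 6 and 26 HAI deviated together in all 3 pairs (r of 0.13 to 0.27). The fit without a block is still the one reported for every comparison, so its p-values do not use this pairing. A fit with the replicate number as a block over all groups was run as an alternative. The members and the gene lists were chosen with earlier results of these data known. Named are the members with the 12 largest T margins, the 10 largest and 10 smallest polysomal margins, the 2 genes on each side of the limit, members of the gene lists or of families of 3 or more, and adjacent members. Members of functional groups were named after their values were seen. Alternatives were no noise filter, a level above 5, equal array medians, a further quantile normalisation, polysomal arrays alone, a replicate block, an intensity trend with robust moderation, array weights, limma's treat, no fold limit, altered forms of the choice rule, and leaving out each replicate number. Where a replicate number was left out of a fit, its polysomal arrays were removed and its total mRNA arrays stayed in. In the altered choice rule its total mRNA arrays were removed. Leaving out each polysomal array of 26 HAI was added after seeing the data.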

Additional observations from a re-analysis of the deposited data

How the results depend on the processing

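Of 152 counts of members under alternatives, 140 were within 1.5 times the reported value. With limma's treat against a 2-fold change the members called higher were 81 (against 6 HAI), 44 (against 48 HAI) and 8 (peak test), those called at 6 HAI against dry seeds were 49 higher and 1 lower, and those called lower at 72 HAI against 48 HAI were 18. With no fold limit, 8 were lower at 6 HAI against dry seeds, and at 72 HAI against 48 HAI 101 were lower and 1 was higher. In the other fits to all members the peak test was passed by 70 (further quantile normalisation) to 86 (array weights), and by 115 with no fold limit. Leaving out a replicate number or one polysomal array of 26 HAI gave 142 to 145 members against dry seeds, 124 to 134 against 6 HAI, 96 to 107 against 48 HAI, 139 to 145 against 72 HAI and 58 to 81 in the peak test, 69 to 79 higher and 1 to 4 lower at 6 HAI against dry seeds, and 0 to 1 higher and 59 to 69 lower at 72 HAI against 48 HAI. The lowest value of the peak test, 58, came without replicate 2. The cause of these shifts was not tested, and each of these fits also had fewer arrays. Altered forms of the rule chose 110 (no level limit) to 136 (medians in place of means) of the same 150 genes, and leaving out a replicate number left 127 to 135 of them.

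The difference of AT1G20015 against 48 HAI, and with it its polysomal margin, was −0.08, but 0.017 with equal array medians, 0.14 without replicate 1, and between −0.28 and 0.20 when one polysomal array of 26 HAI was left out. No other member turned in any alternative in the peak test or in the comparisons with 6 and 48 HAI. The other comparisons were not followed gene by gene. Over all 30 pairs of same-numbered polysomal arrays r was between −0.17 and 0.27 and above 0.1 in 7, among them the 3 pairs of 6 and 26 HAI, and over 15 pairs of polysomal and total arrays of one time point it was at most 0.20 and above 0.1 in 2. Apart from 6 against 26 HAI, no pair of polysomal time points had all 3 correlations above 0.1. With the replicate number as a block, 130 members were called against 6 HAI, as without it, and 82 passed the peak test, from which AAC2 dropped out. The block changed no other call of a member in the peak test or in the comparisons with 6 and 48 HAI.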
